A study of Gallus gallus with 16 samples.

Results

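The comparison described here is how far the effect of nicotine on gene expression differed between day 5 and day 7 of incubation in the chicken embryo. It is the nicotine minus vehicle difference at day 7 less the nicotine minus vehicle difference at day 5, and it uses 16 of the 16 libraries of the series. A positive value means that nicotine libraries stood higher against vehicle at day 7 than at day 5, and a negative value the reverse. The libraries are RNA sequencing of 4 embryos in each of 4 groups: vehicle day 5, nicotine day 5, vehicle day 7 and nicotine day 7. All embryos were wild type domestic chicken from specific pathogen-free eggs. Nicotine, as the hydrogen bitartrate, was dosed at 30 ng/ml by egg weight and injected through the blunt end of the egg before incubation began. Vehicle eggs received sodium bitartrate in the same Ringer's solution. Per the labels, embryos with a heartbeat and no gross abnormality were chosen at random, and the tissue was a spinal cord piece cut between mid-neck and the rear border of the forelimb. Such a piece is bulk tissue, so fewer cells of a type and less RNA per cell cannot be told apart.

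Nicotine acts on nicotinic acetylcholine receptors, cation channels built from subunits encoded by the CHRN genes and opened by acetylcholine. In the embryonic spinal cord motor neurons make acetylcholine with choline acetyltransferase, the product of CHAT, and early spontaneous activity of the chick cord depends on cholinergic signalling. Between these days motor neurons have left the cell cycle, interneurons and sensory neurons are differentiating, and the somites and limb buds beside the cord are forming muscle, cartilage and dermis.

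The values come from a pair of sources. The first is the authors' deposited table of this comparison, which holds no level per library and no error and has a symbol for 9225 of its 21357 genes. The other is the deposited count matrix, which has a level for every library but a symbol for only 756 of its 18394 tested loci. Its 8685 loci that keep a gene identifier hold 0.334% of the counts, and its 18258 assembled loci, which carry no gene name, hold the rest. Whether reads of a named gene also stand in an assembled locus cannot be told here, so a level printed under a symbol is that of its locus and may be part of the gene's. Total counts per library ran from 21801247 to 29002315. In 4 libraries, 1 in each group, 57 loci were nearly without reads (under 0.05 CPM, counts scaled to the library's total) while the other 12 libraries held at least 0.5 CPM. The 4 libraries were replicate 2 of vehicle day 5, replicate 4 of nicotine day 5, and replicate 2 of both groups of day 7. The labelled tissue was checked against its markers: CHAT had reads in every library, at 0.757 to 3.3 CPM, and 13 of 20 neural progenitor genes had an adjusted value in the authors' deposited table. That table holds no levels. It also had an adjusted value for 6 of 26 spinal interneuron factors, 14 of 28 muscle genes, 18 of 30 cartilage and matrix genes and 8 of 21 epidermal genes. These counts therefore cannot tell spinal cord from the tissues beside it.

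In the authors' deposited table, 176 of the 7489 genes with a symbol and an adjusted p-value were called at an adjusted p under 0.05, which is 2.35%. Of these, 134 were called higher (1.79%) and 42 lower (0.561%). Over all genes of the authors' deposited table with an adjusted value, 285 of 12651 were called (2.25%), 198 higher (1.57%) and 87 lower (0.688%). The median log2 value of all 7489 named genes was 0.08, so values below are read against that shift. Their quartiles were -0.132 and 0.268. Most named genes thus lay above 0, and counts of list members above 0 are read against that. Standard errors, which the table does not give, follow from its p-values read as 2-sided Wald tests. They ran from 0.0677 to 0.63 on the log2 scale over the 176 called genes, with a median of 0.167. The table's values equal the authors' day 7 effect minus their day 5 effect for every gene within 1e-12. They likewise equal the change from day 5 to day 7 in nicotine embryos minus that in vehicle embryos. The effects given side by side below therefore share all libraries with the comparison, and their signs are no separate evidence.

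With all 16 libraries and no replicate block, the count matrix gave fewer calls than these 285, and the number depended on the tool. Some other DESeq2 settings, given below, gave more, up to 757. With edgeR's quasi-likelihood test, 0 of 18394 loci passed an adjusted p under 0.05 (0%), with a smallest adjusted p of 0.0956. At an unadjusted p under 0.05 edgeR counted 2521 loci (13.7%), where evenly spread p-values would give 919.7. DESeq2 on the same counts called 232 of 13167 loci (1.76%), 151 higher (1.15%) and 81 lower (0.615%), and limma voom called 1. DESeq2's count was 267 (1.96%; 183 higher, 1.34%, and 84 lower, 0.617%) with a covariate for the 4 libraries that lack the 57 loci, and 105 without those libraries. For nicotine against vehicle within a day, edgeR called 0 of 18394 loci at day 5 and 0 at day 7. DESeq2 called 267 of 11809 at day 5 and 32 of 19474 at day 7. Gaps between groups within a day, given below for matrix loci, describe levels that did not pass edgeR's test. These loci were chosen for a small p of the difference between days or after their values were seen. Such gaps are therefore no separate evidence.

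Genes called higher had, at the median, lower levels in nicotine than in vehicle embryos at day 5 and somewhat higher levels at day 7. In the authors' deposited tables the 134 genes called higher had a median log2 nicotine effect of -0.38 at day 5 and 0.20 at day 7. Their median change from day 5 to day 7 was -0.39 in vehicle embryos and 0.22 in nicotine embryos. The 42 genes called lower had medians of 0.43 at day 5 and -0.27 at day 7 in the authors' deposited tables, with 0.52 in vehicle and -0.29 in nicotine embryos between the days. Over all 7489 genes the 4 medians were -0.05, 0.04, -0.10 and -0.02. Called on their own, the authors' deposited table of day 5 holds 322 genes and that of day 7 holds 84.

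**Figure D1:**
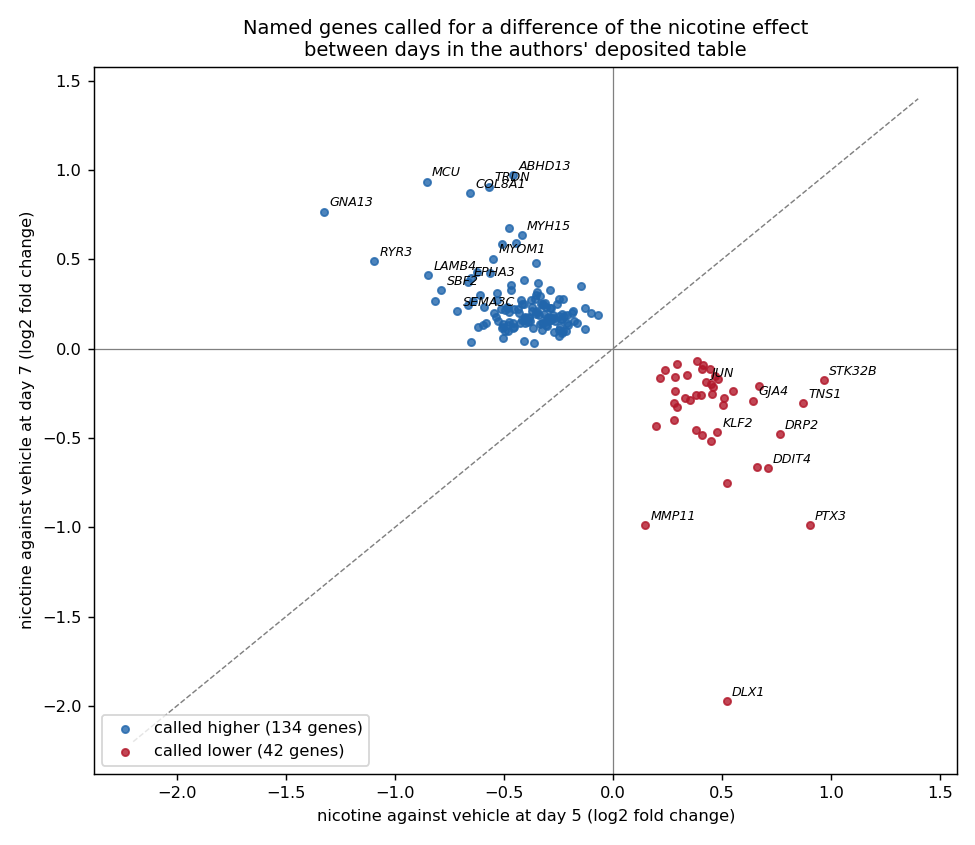
Nicotine effect at day 5 (x axis, log2 fold change) against the effect at day 7 (y axis, log2 fold change) for the 176 named genes called in the authors' deposited table, with the 134 called higher in blue and the 42 called lower in red; the dashed line marks equal effects. The blue points lie in the upper left and the red points in the lower right, with DLX1 lowest at day 7 (-1.97) and GNA13 furthest left at day 5 (-1.33).

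The receptor subunits themselves gave no call. Of 16 subunit genes looked for, 4 had an adjusted value in the authors' deposited table, and their median log2 difference was -0.06. CHRNA1, the alpha subunit of the muscle receptor, had 0.71 with an adjusted p of 0.307 in the authors' deposited table. CHRNA4 and CHRNB2 form the most common neuronal receptor of the brain in mammals. Their values in the authors' deposited table were 0.12 (adjusted p = 0.806) and -0.49 (adjusted p = 0.524). CHRNA3, a subunit of ganglionic receptors, was listed at 0.51 with no adjusted value in the authors' deposited table, and CHRNA7 is not analysed here. In the matrix, 4 subunit loci had levels, and none passed edgeR's test of the difference between days (adjusted p 0.441 to 0.813). CHRNB4, which pairs with CHRNA3, was at 1.66, 1.23, 0.963 and 2.36 CPM in vehicle day 5 and at 1.23, 0.881, 0.71 and 0.74 CPM in nicotine day 5. At day 7 it was at 1.88, 3.01, 5.0 and 3.55 CPM in vehicle and at 1.93, 4.65, 3.67 and 4.07 CPM in nicotine. The treatment groups of CHRNB4 overlapped at both days.

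CHAT levels were lower in the nicotine libraries of day 5, with no such gap at day 7. At day 5 CHAT was at 2.51, 2.46, 3.3 and 2.84 CPM in vehicle libraries and at 1.64, 2.01, 0.757 and 1.31 CPM in nicotine libraries, so the groups did not overlap. At day 7 CHAT was at 1.72, 0.781, 2.22 and 1.75 CPM in vehicle and at 2.73, 1.49, 2.31 and 1.7 CPM in nicotine, and the groups overlapped. The difference between days was 1.3 on the log2 scale (SE 0.467), which did not pass edgeR's test (adjusted p = 0.293). Nor did the day 5 effect of CHAT pass edgeR's test (adjusted p = 0.259). CHAT was among the loci chosen for a small p of the difference between days, so its gap at day 5 is no separate evidence. COLQ, the other of the list's 2 loci in the matrix, went the other way and had few reads. Its difference between days was -1.96 (SE 1.89, edgeR adjusted p = 0.668), and the median of both loci was -0.33. Among the 9 cholinergic and motor neuron genes with an adjusted value, 0 were called in the authors' deposited table and 6 lay above 0. ISL1, a homeobox factor of motor and sensory neurons, was the nearest at log2 -0.85 (adjusted p = 0.0522) in the authors' deposited table. Its authors' effects were 0.65 at day 5 and -0.21 at day 7.

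A pair of loci tied to other neuron types had the reverse order of groups. FEV, the ETS factor that specifies serotonin neurons, was at 0.314, 0.362, 0.183 and 0.162 CPM in vehicle day 5 and at 0.779, 0.493, 1.14 and 1.13 CPM in nicotine day 5. At day 7 FEV was at 1.72, 1.82, 0.369 and 1.5 CPM in vehicle and at 0.546, 0.654, 0.589 and 0.678 CPM in nicotine. FEV groups were apart at day 5, and at day 7 vehicle replicate 3 lay below all 4 nicotine libraries while the other 3 lay above. CNGA4, a cyclic nucleotide-gated channel subunit known from mammalian olfactory neurons, was at 0.179, 0.687, 0.367 and 0.203 CPM in vehicle day 5 and at 0.82, 1.09, 1.37 and 1.0 CPM in nicotine day 5. At day 7 CNGA4 was at 1.4, 1.41, 1.38 and 1.13 CPM in vehicle and at 0.947, 0.727, 1.04 and 0.382 CPM in nicotine. CNGA4 groups did not overlap at either day and stood in opposite order. By edgeR the difference between days was -2.89 (SE 0.651) for FEV and -2.33 (SE 0.575) for CNGA4 on the log2 scale, each with an adjusted p of 0.237, which did not pass. Both are low, at fewer than 2 CPM in every library. They were chosen for a small p of this difference, so gaps between their groups are no separate evidence. The share of all tested loci with groups apart was not counted.

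No neuronal differentiation gene was called. Of 7 cytoskeleton and differentiation genes with an adjusted value, 2 lay above 0 in the authors' deposited table, with a median of -0.41. RBFOX3, a splicing factor of maturing neurons, stood in the authors' deposited table at -0.67 (adjusted p = 0.107), from 0.48 at day 5 and -0.19 at day 7. NEFH, the heavy neurofilament chain, was at 0.627, 1.23, 0.642 and 0.853 CPM in vehicle day 5 and at 1.89, 1.37, 1.99 and 1.22 CPM in nicotine day 5. At day 7 NEFH was at 3.37, 3.87, 4.67 and 4.89 CPM in vehicle and at 3.13, 3.63, 5.4 and 3.52 CPM in nicotine. The day 5 groups of NEFH touched, at 1.23 and 1.22 CPM, and those of day 7 overlapped (difference -1.04, SE 0.364, edgeR adjusted p = 0.289). GRIN2A, a subunit of the NMDA glutamate receptor, ran the other way at day 5, at 1.66, 2.39, 2.2 and 1.22 CPM in vehicle and at 0.574, 0, 1.14 and 0.566 CPM in nicotine. Its day 7 groups overlapped, at 1.93 to 3.22 and 2.55 to 3.52 CPM, and edgeR's adjusted p for the difference between days was 0.334. In the authors' deposited table, 14 genes of the GABA, glycine and glutamate list had an adjusted value. Their median was 0.03, with 7 above 0 and 0 called. In the matrix that list had 7 loci, with a median difference of 0.51. GRIN2A, GRIK2, GABRA5 and GABRB2 lay above 0, and GRIN1, GABRG1 and GABRA2 below. GRIN1, another NMDA receptor subunit, was at -0.55 (edgeR adjusted p = 0.701). KCNS1, a modulatory potassium channel subunit, was at 1.03 to 1.42 CPM in vehicle and 1.85 to 2.79 CPM in nicotine at day 5, with overlapping groups at day 7 (edgeR adjusted p = 0.342). Both GRIN2A and KCNS1 were chosen after their values were seen, so their gaps at day 5 are no separate evidence.

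**Figure D2:**
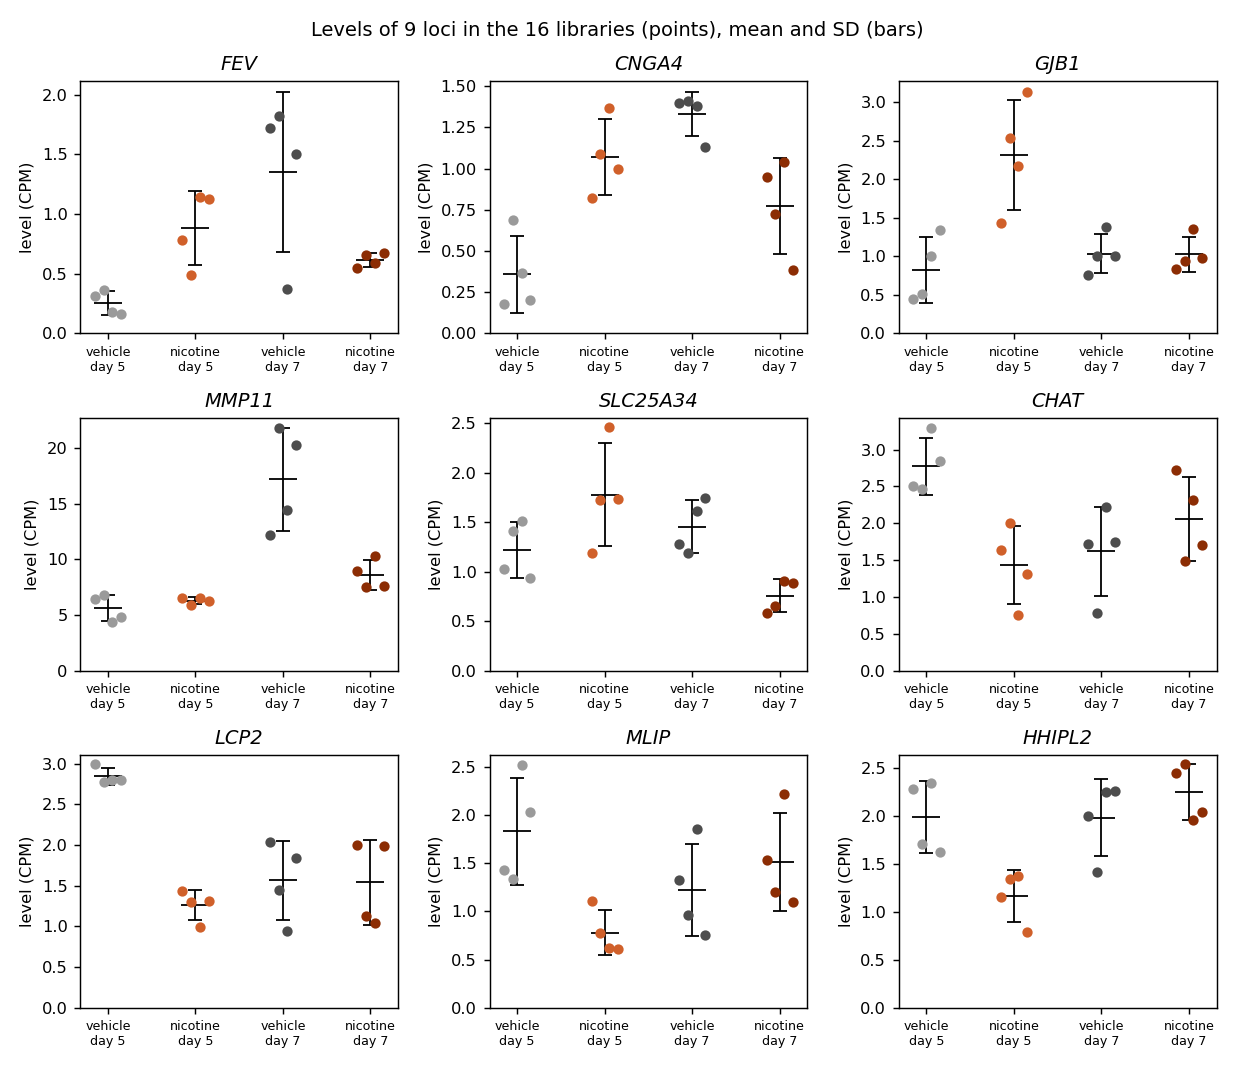
Level (y axis, CPM) of 9 loci in each of the 16 libraries by group (x axis); points are libraries, the long horizontal bar is the mean and the error bars are the SD over 4 libraries. CNGA4 stands apart at both days in opposite order, CHAT, LCP2, MLIP, HHIPL2, FEV and GJB1 at day 5 only, and MMP11 and SLC25A34 at day 7 only. The 9 loci were chosen for a small p of the difference between days, so these gaps are no separate evidence.

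Some calcium handling and muscle genes were among those called higher. RYR3, a calcium release channel of the endoplasmic and sarcoplasmic reticulum, had a log2 difference of 1.59 (adjusted p = 0.00026) in the authors' deposited table. Its nicotine effect there was -1.10 at day 5 and 0.49 at day 7. Between the days RYR3 fell by 1.17 in vehicle embryos (called in the authors' deposited table of that change) and stood 0.42 higher in nicotine embryos (not called). STIM2, a sensor of stored calcium, was called at log2 0.65 (adjusted p = 0.0401) in the authors' deposited table. These were 2 of the 12 calcium store and signalling genes with an adjusted value, where 1.79% of all named genes were called higher. The list's median was 0.21 against 0.08 for all named genes. RYR3 spans 185 kb and STIM2 70.5 kb, and in their bins of gene span, described below, 32 and 26 of 732 genes were called higher. With a trend on span removed, which also takes out the shift of all genes, the list's median was 0.10. Over the 3 loci of the list in the matrix it was -0.14. Outside that list, and named for its size of change and not as a member, MCU, the pore of the mitochondrial calcium uniporter, was called at log2 1.79 (adjusted p = 0.0373) in the authors' deposited table. SLC24A4, a potassium-dependent sodium and calcium exchanger, was called there at 1.09 (adjusted p = 0.0228). CACNA2D3, an auxiliary subunit of voltage-gated calcium channels, was the 1 called gene of 15 ion channel genes, at log2 0.91 (adjusted p = 0.03) in the authors' deposited table. The median of those 15 genes was -0.04, with 7 above 0. CACNA2D3 spans 410 kb, in the bin where 32 of 732 genes were called higher. MCU spans 80.7 kb and SLC24A4 85.5 kb, in the bin where 26 of 732 were.

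Among 14 skeletal muscle and sarcomere genes with an adjusted value, 12 lay above 0 in the authors' deposited table, with a median of 0.44. Of the 14, 2 were called higher, where 1.79% of all named genes were. MYH15, a myosin heavy chain, was called at log2 1.06 (adjusted p = 0.0205) in the authors' deposited table. MYOM1, the M-band protein myomesin, was called there at 1.06 as well (adjusted p = 0.0416). MYH15 spans 46.6 kb and MYOM1 77.6 kb, and in their bins of gene span 18 of 731 and 26 of 732 genes were called higher. The sarcomere genes MYBPC1, TNNC2 and MYL1 were at 1.00, 0.45 and 0.51 without passing in the authors' deposited table. SGCA, alpha-sarcoglycan of the dystrophin complex, was the furthest below 0 at -1.3 (adjusted p = 0.113), also in the authors' deposited table. TRDN, which anchors calsequestrin to the muscle ryanodine receptor, is not on the list and was called at log2 1.48 (adjusted p = 0.025) in the authors' deposited table. MLIP, a lamin-interacting protein of muscle, was at 1.43, 1.34, 2.52 and 2.03 CPM in vehicle day 5 and at 1.11, 0.775, 0.615 and 0.61 CPM in nicotine day 5. At day 7 MLIP was at 1.32, 0.967, 1.85 and 0.752 CPM in vehicle and at 1.53, 1.2, 2.22 and 1.1 CPM in nicotine. MLIP groups were apart at day 5 only, and edgeR's difference of 1.53 (SE 0.483) did not pass (adjusted p = 0.262). None of the 28 muscle genes had a level in the matrix under its symbol, so how muscle content varied among the pieces was not tested.

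Signalling and guidance genes were called in both directions. SBF2, a phosphatase-like regulator of membrane traffic linked to a human neuropathy of myelin, had the smallest adjusted p of the genes named here, 1.1e-05, with 1.12 in the authors' deposited table. GNA13, a G protein alpha subunit, had the largest value of the named genes called higher, at log2 2.10 (adjusted p = 0.0436) in the authors' deposited table. EPHA3, an ephrin receptor of axon guidance, was called at 1.04 (adjusted p = 0.0118), and SEMA3C, a secreted semaphorin, at log2 0.92 (adjusted p = 0.0205) in the authors' deposited table. They were 2 of 29 axon guidance genes with an adjusted value, and the median of that list was 0.04. With the trend on span removed, which also takes out the shift of all genes, that median was -0.20. Over all named genes 1.79% were called higher. EPHA3 spans 221 kb and SEMA3C 122 kb, and in their bin of gene span 32 of 732 genes were called higher. EPHB3, another ephrin receptor, is not on the axon guidance list and was named after its value was seen. The authors' deposited table called EPHB3 lower, at -0.68 (adjusted p = 0.0435). BMPR1A, a BMP receptor, was called at 0.59 (adjusted p = 0.023) and was 1 of 18 BMP and TGF-beta genes in the authors' deposited table. RARB, a retinoic acid receptor, was called at 0.48 (adjusted p = 0.0304) and was 1 of 7 retinoic acid genes there. In the authors' deposited tables EPHA3, SEMA3C, BMPR1A and RARB had day 5 effects of -0.66, -0.71, -0.49 and -0.36, each called at day 5, and day 7 effects of 0.38, 0.21, 0.10 and 0.12, none called.

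Matrix genes were called in both directions. COL8A1 and COL12A1, collagen chains, were called higher at 1.53 (adjusted p = 0.0306) and 0.69 (adjusted p = 0.0307) in the authors' deposited table, as was LAMB4, a laminin chain, at 1.26 (adjusted p = 0.0304). COL12A1 was the 1 called of 18 cartilage, bone and matrix genes (median 0.24, or 0.06 with the span trend removed). COL8A1 and LAMB4 were named for their size of change and not as members. COL8A1, COL12A1 and LAMB4 span 89.1, 106 and 53.8 kb. In their bins of gene span 26 of 732, 26 of 732 and 18 of 731 genes were called higher. TIMP4, an inhibitor of metalloproteinases, was called at log2 0.99 (adjusted p = 0.0207) in the authors' deposited table. MMP11, a metalloproteinase made by stromal cells, was called lower at -1.13 (adjusted p = 0.0205) in that table. Of 8 metalloproteinase and inhibitor genes with an adjusted value, 1 was called higher and 1 lower. Over all named genes 1.79% were called higher and 0.561% lower. Of the 176 called named genes, MMP11 was the 1 whose identifier has a level in the matrix. There MMP11 was at 6.41, 6.8, 4.4 and 4.83 CPM in vehicle day 5 and at 6.52, 5.92, 6.49 and 6.23 CPM in nicotine day 5. At day 7 MMP11 was at 12.2, 21.8, 14.4 and 20.3 CPM in vehicle and at 8.92, 7.48, 10.3 and 7.59 CPM in nicotine. The groups overlapped at day 5, and at day 7 every nicotine library lay below every vehicle library. The matrix difference was -1.17 (SE 0.271), which passed DESeq2's test (adjusted p = 0.0206) and did not pass edgeR's (adjusted p = 0.237). PALMD and ABHD13 completed the named genes called higher at 1.15 (adjusted p = 0.0353) and 1.43 (adjusted p = 0.0448) in the authors' deposited table.

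**Figure D3:**
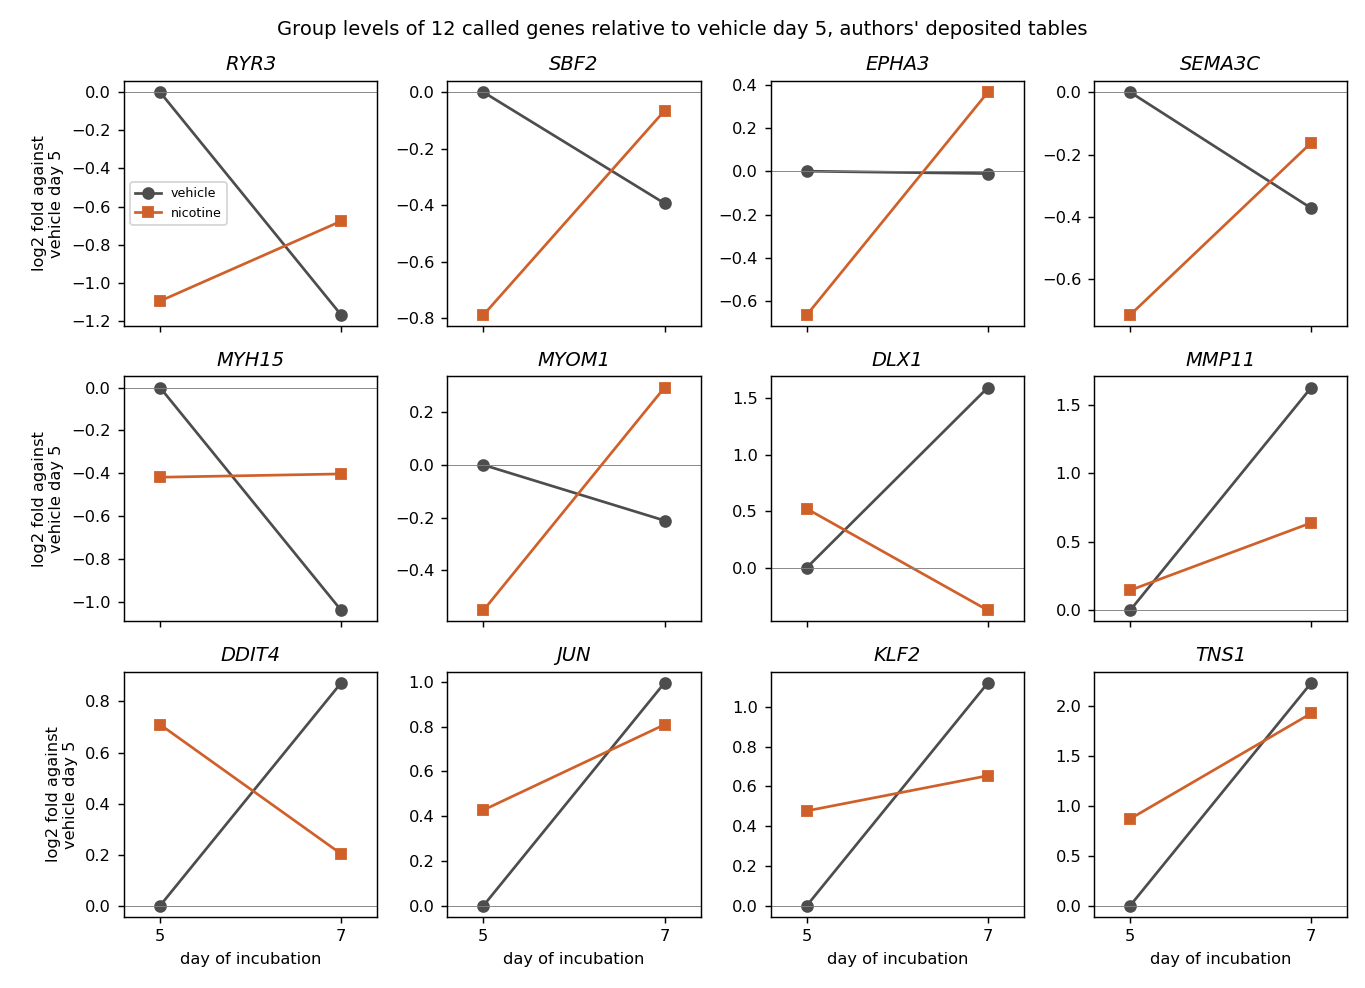
Level relative to vehicle day 5 (y axis, log2) at day 5 and day 7 (x axis, day of incubation) for 12 called genes, vehicle as grey circles and nicotine as orange squares, from the authors' deposited tables with no error per group. The lines cross in each panel: RYR3 fell by 1.17 in vehicle embryos and stood 0.42 higher in nicotine embryos, and DLX1 was 1.59 higher in vehicle and 0.90 lower in nicotine embryos at day 7 than at day 5.

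Transcription factors of limb and face mesenchyme lay on the negative side. DLX1, a homeobox factor, had the lowest value of the named genes called lower, -2.49 (adjusted p = 0.0123) in the authors' deposited table, from 0.52 at day 5 and -1.97 at day 7. Of 11 limb and face patterning genes with an adjusted value, 0 lay above 0 in the authors' deposited table, with a median of -1.09. Where 0.561% of all named genes were called lower, the 1 called member of this list was DLX1. DLX1 spans 1.75 kb, and in its bin of gene span 13 of 732 genes were called lower. Its relatives DLX5 and DLX6 were at -1.96 (adjusted p = 0.0734) and -2.72 (adjusted p = 0.062), and HAND2, a limb bud factor, was at log2 -1.90 (adjusted p = 0.182) in the authors' deposited table. FOXF2, a forkhead factor of mesenchyme, was called at log2 -0.97 (adjusted p = 0.03) in the authors' deposited table. At day 7 alone, DLX1, DLX5 and DLX6 had nicotine effects of -1.97, -2.02 and -2.80 in the authors' deposited table, each called there. The list was made with the day 7 result already known, so its direction is not independent of that result.

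Surface epithelium markers stood on the same side. Of 8 epidermal genes with an adjusted value, 1 lay above 0 in the authors' deposited table, the median was -0.53 and 0 were called. CLDN3, a tight junction protein, was the nearest at log2 -2.19 (adjusted p = 0.099) in the authors' deposited table. The 3 epidermal genes of 21 with a level in the matrix, PKP1, ESRP1 and GRHL2, summed to 7.52 to 11.9 CPM in vehicle day 5 and 5.3 to 11.8 CPM in nicotine day 5. At day 7 their sum was 5.16 to 8.36 CPM in vehicle and 2.5 to 7.56 CPM in nicotine. The ranges overlapped at both days. By edgeR the difference between days was 0.98 for PKP1, the other way from ESRP1 at -0.69 and GRHL2 at -0.37. None of these passed (edgeR adjusted p 0.478 to 0.797). The part of surface tissue in the limb and face result was not tested. HOX genes, which mark position along the body axis, had 6 of 7 members above 0 with their median at 0.615 and 0 called in the authors' deposited table. The nearest with an adjusted value was HOXB7 at log2 1.34 (adjusted p = 0.186) in the authors' deposited table.

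Among 20 immediate early and stress genes with an adjusted value, 4 were called lower in the authors' deposited table, where 0.561% of all named genes were, and 0 were called higher. DDIT4, an inhibitor of mTORC1 induced by stress, was called at log2 -1.38 (adjusted p = 0.00452) in the authors' deposited table, from 0.71 at day 5 and -0.67 at day 7. KLF2, a zinc finger factor of vessels and flow, was called at log2 -0.94 (adjusted p = 0.0205) in the authors' deposited table. DUSP1, a phosphatase that turns off MAP kinases, and JUN, a subunit of AP-1, were called there at -0.71 (adjusted p = 0.0218) and -0.61 (adjusted p = 0.0228). The median of the 20 members was -0.02. The 4 called genes span 1.32 to 2.59 kb, and in their bin of gene span, described below, 13 of 732 genes were called lower. GJA4, a gap junction protein of arteries, was called at -0.93 (adjusted p = 0.0247) and was 1 of 11 endothelial genes in the authors' deposited table.

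The remaining named genes called lower were spread over several functions. PTX3, a secreted pentraxin of innate immunity, was at log2 -1.89 (adjusted p = 0.0205) in the authors' deposited table. TNS1, a focal adhesion protein, was at -1.18 (adjusted p = 0.00452) there, and it was 2.23 higher at day 7 than at day 5 in vehicle embryos against 1.06 in nicotine embryos. DRP2, a dystrophin relative of myelinating Schwann cells, was at log2 -1.24 (adjusted p = 0.0436) in the authors' deposited table. CARMIL3, an actin regulator, STK32B, a protein kinase, and SHISA4 were at -1.32 (adjusted p = 0.0353), -1.14 (adjusted p = 0.0304) and -1.28 (adjusted p = 0.0484) in the authors' deposited table.

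**Figure D4:**
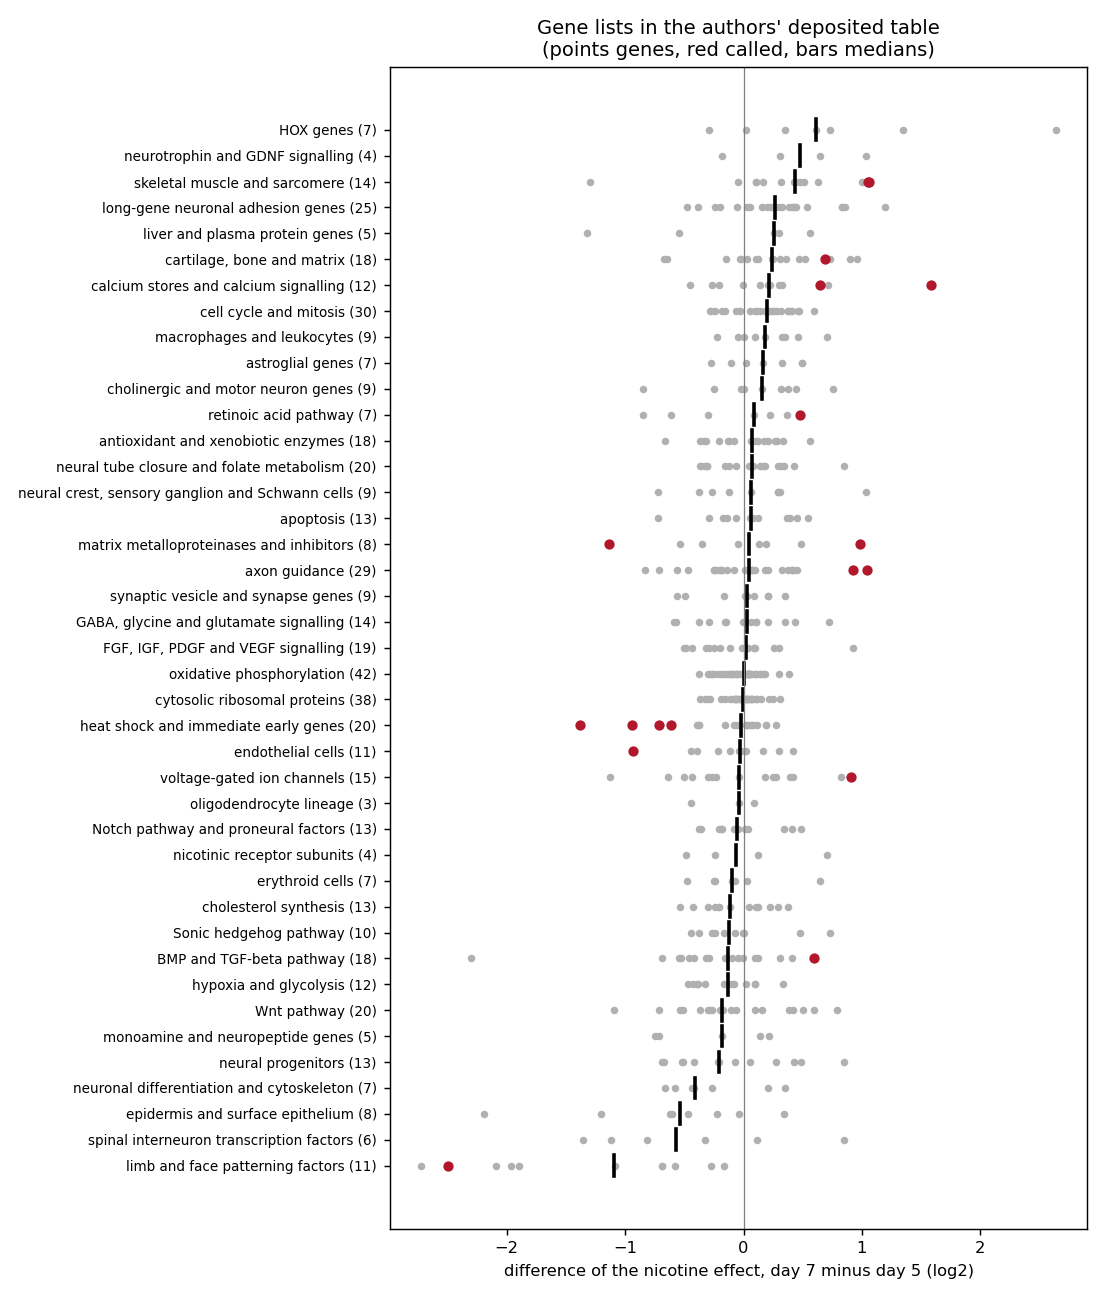
Log2 difference of the nicotine effect, day 7 minus day 5 (x axis), for the members of 41 gene lists with an adjusted value in the authors' deposited table (rows, with the number of members in brackets); points are genes, red points are called and black bars are medians. Of the lists, 11 hold a called gene; the limb and face list has the lowest median (-1.09) and the HOX list the highest (0.61).

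Most lists gave no call. The 41 lists hold 550 distinct genes with an adjusted value, of which 18 were called, 11 higher and 7 lower, beside 176 of 7489 (2.35%) over all named genes, and 30 lists had none. Cytosolic ribosomal proteins (38 genes) and oxidative phosphorylation genes (42 genes) had medians that round to 0.00 and 0 calls in the authors' deposited table. Cell cycle genes had 22 of 30 members above 0 with a median of 0.20 and 0 calls there. PAX3, a paired-box factor of dorsal progenitors and muscle precursors, was at 0.85 (adjusted p = 0.0553) and SFRP2, a Wnt antagonist, at log2 -0.72 (adjusted p = 0.0553) in the authors' deposited table.

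Leukocyte genes had levels in the matrix, and none passed the test. LCP2, an adaptor of immune receptor signalling, was at 3.0, 2.78, 2.8 and 2.8 CPM in vehicle day 5 and at 1.43, 1.3, 0.994 and 1.31 CPM in nicotine day 5. At day 7 LCP2 was at 2.04, 1.45, 0.94 and 1.84 CPM in vehicle and at 2.0, 1.13, 1.04 and 1.99 CPM in nicotine. The day 5 groups of LCP2 were apart and those of day 7 overlapped, with a difference of 1.15 (SE 0.385, edgeR adjusted p = 0.276). PTPRC, the leukocyte antigen CD45, was at 6.94, 6.91, 9.04 and 5.89 CPM in vehicle day 5 and at 7.5, 6.27, 4.12 and 5.1 CPM in nicotine day 5. At day 7 PTPRC was at 5.65, 5.65, 4.2 and 4.89 CPM in vehicle and at 5.94, 6.65, 6.71 and 6.95 CPM in nicotine. PTPRC groups were apart at day 7 only, and edgeR's difference of 0.69 (SE 0.26) did not pass (adjusted p = 0.307). The 4 leukocyte loci of the list with a level summed to 13.2 to 17.8 CPM in vehicle day 5 and 8.37 to 13 CPM in nicotine day 5. At day 7 the sums were 9.68 to 11.7 CPM in vehicle and 11.9 to 13 CPM in nicotine. LCP2 and PTPRC were chosen for a small p of the difference between days, so their gaps and these sums are no separate evidence. ITGB2 and TLR4, the other loci summed, overlapped between treatments at both days. Their differences were 0.49 and 0.15 on the log2 scale (edgeR adjusted p = 0.669 and 0.905). CSF1R, the growth factor receptor of macrophages, was at log2 0.46 (adjusted p = 0.0558) in the authors' deposited table. That table called 0 of 9 leukocyte genes.

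Among the other named loci of the matrix, GJB1 showed its gap at day 5. GJB1, the gap junction protein connexin 32 of Schwann cells and liver, was at 0.448, 0.506, 1.01 and 1.34 CPM in vehicle day 5 and at 1.43, 2.54, 2.18 and 3.14 CPM in nicotine day 5. At day 7 GJB1 was at 0.762, 1.0, 1.38 and 1.0 CPM in vehicle and at 0.838, 0.945, 1.36 and 0.975 CPM in nicotine, so the groups were apart at day 5 only (difference -1.5, SE 0.506, edgeR adjusted p = 0.277). HHIPL2, a relative of the hedgehog-interacting protein, had the opposite order. HHIPL2 was at 2.28, 1.7, 2.34 and 1.62 CPM in vehicle and 1.15, 1.34, 1.37 and 0.784 CPM in nicotine at day 5, and at 2.0, 1.41, 2.25 and 2.26 CPM against 2.44, 2.54, 1.95 and 2.04 CPM at day 7. HHIPL2 groups were apart at day 5 and overlapped at day 7 (difference 0.95, SE 0.326, edgeR adjusted p = 0.281).

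SLC25A34, a mitochondrial carrier family member, CFAP52, a protein of motile cilia, and IMPG2, a proteoglycan of the retinal matrix, had their gap at day 7. SLC25A34 was at 1.03, 1.41, 1.51 and 0.934 CPM in vehicle and 1.19, 1.73, 2.46 and 1.74 CPM in nicotine at day 5, and at 1.28, 1.19, 1.61 and 1.75 CPM against 0.583, 0.654, 0.907 and 0.89 CPM at day 7. CFAP52 was at 1.17 to 2.97 CPM in vehicle day 7 and 0.272 to 0.874 CPM in nicotine day 7, after overlapping ranges of 0.78 to 2.5 and 0.757 to 1.97 CPM at day 5. IMPG2 was at 3.22 to 9.26 CPM in vehicle day 7 and 0.771 to 2.66 CPM in nicotine day 7, after 0.975 to 2.03 and 0.568 to 3.28 CPM at day 5. All 3 were lower in every nicotine library than in every vehicle library at day 7. They were chosen for a small p of the difference between days, so these gaps are no separate evidence. By edgeR their differences between days were -1.48 (SE 0.386), -2.16 (SE 0.653) and -2.32 (SE 0.702) on the log2 scale, with adjusted p of 0.237, 0.259 and 0.259, which did not pass.

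GHRL, which encodes the hormone ghrelin, and TMPRSS2, a membrane serine protease, overlapped between treatments at both days. Their differences were 1.28 (SE 0.423) and 1.65 (SE 0.584) on the log2 scale, with edgeR adjusted p of 0.272 and 0.29. OR11A1 belongs to the large olfactory receptor family, whose members share sequence, so its counts are uncertain. OR11A1 had 0 reads in all 4 vehicle libraries of day 7 and 6, 10, 0 and 14 reads in those of nicotine, after 18, 45, 31 and 22 reads in vehicle and 19, 36, 17 and 33 in nicotine at day 5. SLC4A5, a bicarbonate cotransporter, had no reads in vehicle day 5 and was at 0.861, 0.669, 0 and 0.871 CPM in nicotine day 5. At day 7 SLC4A5 was at 0.521, 0.484, 0.269 and 0 CPM in vehicle and at 0.583, 0.581, 0.589 and 0.127 CPM in nicotine. No fold between days is given for these loci, since a whole group is at 0, and edgeR's adjusted p were 0.237 and 0.272.

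The smallest p-values of the matrix belonged to loci without a symbol, singled out here after their values were seen. MSTRG.10699 was at 106.0, 90.0, 99.3 and 77.5 CPM in vehicle day 5 and at 55.4, 49.7, 52.7 and 61.7 CPM in nicotine day 5. At day 7 MSTRG.10699 was at 81.2, 62.6, 69.0 and 68.4 CPM in vehicle and at 79.0, 79.9, 90.1 and 104.0 CPM in nicotine. Its groups were apart at day 5 and overlapped at day 7, and the difference of 1.09 (SE 0.167) passed DESeq2's test (adjusted p = 2.84e-06) but not edgeR's (adjusted p = 0.0956). MSTRG.14580 was at 17.2, 22.2, 17.3 and 21.4 CPM in vehicle day 5 and at 24.3, 27.0, 30.1 and 26.0 CPM in nicotine day 5. At day 7 MSTRG.14580 was at 38.3, 36.8, 39.0 and 36.4 CPM in vehicle and at 27.1, 27.6, 29.6 and 33.7 CPM in nicotine, apart at both days in opposite order. Its difference was -0.81 (SE 0.148), with an adjusted p of 0.000325 by DESeq2 and 0.237 by edgeR. MSTRG.13005 was apart at day 7, at 26.9 to 33.1 CPM in vehicle and 21.2 to 25.5 CPM in nicotine, with 22.8 to 26.7 and 26.1 to 35.2 CPM at day 5 (adjusted p = 0.00298 by DESeq2 and 0.237 by edgeR). ENSGALG00000032971 had no reads in vehicle day 7 and was at 0.364, 0.218, 0.227 and 0.382 CPM in nicotine day 7, after 0.69 to 1.34 CPM in vehicle and 0.305 to 0.775 CPM in nicotine at day 5 (edgeR adjusted p = 0.0956).

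The value of the comparison also varied with the length of the gene. Spans from RefSeq's GRCg7b annotation were matched by symbol to 7317 of the 7489 named genes (97.7%). The median span was 20.7 kb over all matched genes, 49.0 kb over the genes called higher and 9.34 kb over those called lower. Across genes, the rank correlation of span with the authors' log2 value was 0.37 for the difference between days, -0.40 for the day 5 effect and 0.14 for the day 7 effect. Genes are not independent replicates, so these are descriptions. In the shortest of 10 equal bins of genes the median difference was -0.13 with 1 called higher and 13 called lower in the authors' deposited table, and in the longest bin it was 0.25 with 32 higher and 1 lower. Of the genes named above, SBF2 spans 232 kb, EPHA3 221 kb and RYR3 185 kb, whereas DDIT4 spans 1.32 kb, DLX1 1.75 kb and JUN 1.97 kb. With a smooth trend on span removed, the authors' log2 values were 0.86 for SBF2, 1.34 for RYR3, 0.78 for EPHA3, -1.20 for DDIT4, -2.33 for DLX1 and -0.46 for JUN. What the span trend has to do with the calls was not tested.

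A score per library was taken from the count matrix, over its 733 tested loci with a symbol and a span. These are among the loci with a gene identifier, which hold 0.334% of the counts, so the score covers a small part of each library. It is the mean log2 CPM of the 245 longest of these loci less that of the 244 shortest, each locus centred on its mean over the 16 libraries. On average the score was lowest in nicotine day 5. It was 0.286, 0.0928, 0.00997 and -0.197 in vehicle day 5 and -0.161, -0.363, -0.8 and -0.00816 in nicotine day 5. At day 7 it was 0.207, 0.223, 0.0795 and 0.0805 in vehicle and 0.0826, 0.262, 0.153 and 0.0516 in nicotine. Nicotine replicate 3 of day 5 was the lowest library, and the treatment groups overlapped at both days. The day 7 difference minus the day 5 difference of the score was 0.371, and 0.215 without that library.

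**Figure D5:**
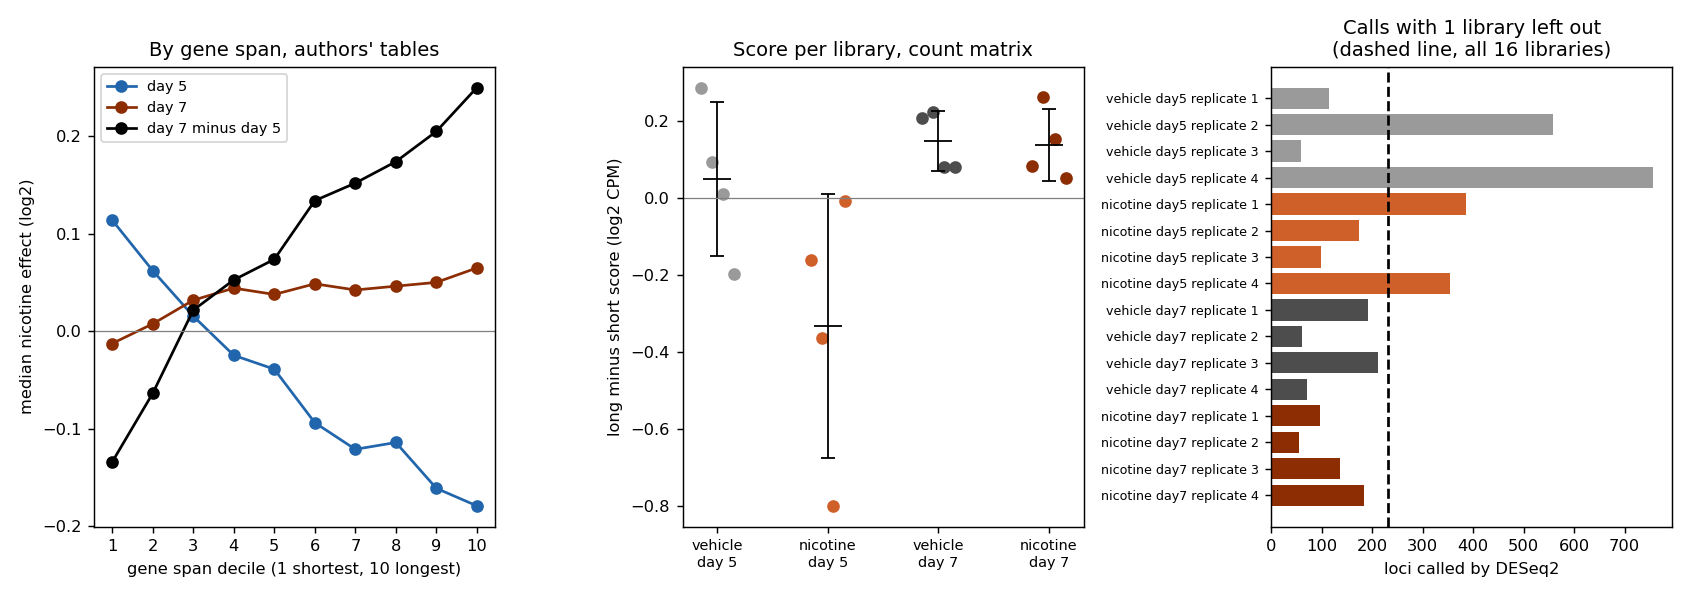
Left, median log2 nicotine effect (y axis) by bin of gene span (x axis, 1 shortest to 10 longest) at day 5, at day 7 and as their difference, from the authors' deposited tables. Middle, long minus short score (y axis, log2 CPM) of each library by group, with mean and SD over 4 libraries; right, loci called by DESeq2 (x axis) with each library in turn left out, where the dashed line is the 232 called with all 16. The difference runs from -0.13 to 0.25 across span, nicotine day 5 replicate 3 scores lowest at -0.8, and the count runs from 55 to 757.

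The number of loci called by DESeq2 on the matrix rested on single libraries. Leaving out replicate 4 of vehicle day 5 raised it from 232 to 757, and leaving out replicate 2 of that group gave 559. Leaving out replicate 2 of nicotine day 7 gave 55, replicate 3 of vehicle day 5 gave 59, and replicates 2 and 4 of vehicle day 7 gave 60 and 70. Of the 232 loci, 229 were among the 757 and 46 among the 55. The authors' deposited table cannot be refitted without a library, so how far its 285 calls rest on single embryos was not tested.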

How the data were processed

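RNA was sequenced from 16 chicken embryos in 4 groups of 4, which the labels call biological replicates. The authors deposited raw read counts per locus, unnormalised, with 26943 loci and 1 column per library, and 5 tables of their own comparisons. Those tables, deposited by the authors, hold, per gene, a p-value as computed and as adjusted, the log2 fold change and its linear ratio, and an adjusted p of exactly 1 beside a small p was read as no adjusted value. The submitters' processing notes list, without roles, the tools DESeq2, StringTie (1.3.3b), Bowtie2 (2.3.2), HISAT2 (2.0.5), Trim Galore (0.4.4) and FastQC (0.11.5). The sources used here do not name the genome build, the annotation or whether counting used strand. Therefore no coordinates are printed and overlapping, antisense or near-identical genes cannot be separated. Symbols came from the authors' tables, whose identifiers match 7138 of its loci and name 1141 of them.

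Counts were fitted with edgeR 4.0.16 under R 4.3.3 (loci kept by filterByExpr, TMM factors, quasi-likelihood test, Benjamini-Hochberg adjustment, 4 group means over all 16 libraries). The contrast was nicotine minus vehicle at day 7 less the same at day 5, and 18394 loci were tested. DESeq2 1.42.0 and limma 3.58.1 (voom) were alternatives. Levels are CPM, counts scaled by library total and TMM factor. Other alternatives were RLE factors, no filter, a mean of at least 1 CPM, a replicate block, a covariate for the 4 libraries lacking 57 loci, leaving those 4 out, leaving out each library, and, for the authors' table, an adjusted p under 0.1, readjusted p-values and removal of a trend on gene span. The steps were tested on simulated data. No 2 libraries of a group agreed within sampling noise (chi-square per locus 16.8 to 68 over 24 pairs).

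The members, gene lists and tests were chosen with earlier results of these data known. Named loci of the matrix were up to 8 a direction with the smallest edgeR p among those with a symbol and at least 0.5 CPM in the highest group, called or not. Named genes of the authors' table were up to 10 a direction with the largest log2 value of at most 10 in size among those called. The called genes of each list, or its nearest member, and 4 receptor subunits were added. Other list members named, and loci without a symbol, were chosen after their values were seen. Depth limits low loci, since counts carry counting error. In these tests a p-value weighs a difference against the spread between libraries of a group, and is not itself a measure of that spread.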

Additional observations from a re-analysis of the deposited data

Results flagged for a closer look

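Several libraries stood apart from the other 3 of their group by the 95% critical value of Dixon's test. This happened in 11 of the 152 groups of 4 looked at, where chance gives about 1 in 20. APOB, a liver and yolk lipoprotein, was at 41.9 CPM in nicotine day 5 replicate 4 and at 0 to 0.574 CPM in the others of that group. The liver genes of the matrix, APOB among them, summed to 2.22 to 46.8 CPM in that group and to 2.6 to 5.98 CPM over the other groups. Of the 46.8 CPM, APOB alone held 41.9 CPM. TLR4, a receptor for bacterial products, was low in the same library at 1.0 CPM. The other such values were LCP2 at 3.0 CPM, IMPG2 at 2.03 CPM, CHRNA2 at 1.56 CPM and GRHL2 at 7.44 CPM in vehicle day 5, each high. MSTRG.13005 was low at 26.1 CPM in nicotine day 5, CNGA4 low at 1.13 CPM in vehicle day 7, and SLC4A5 low at 0.127 CPM in nicotine day 7. SULT1C3, a sulfotransferase, was high in 1 library of each day 7 group, at 0.0744 CPM (2 reads) in vehicle and 2.4 CPM in nicotine.

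The nicotine effect of the following genes differed between the days by the adjusted p of the authors' deposited table, with values on the log2 scale. Above 0 in the authors' deposited table were GNA13 at 2.10, MCU at 1.79, RYR3 at 1.59, COL8A1 at 1.53, TRDN at 1.48, ABHD13 at 1.43, LAMB4 at 1.26, PALMD at 1.15, SBF2 at 1.12 and SLC24A4 at 1.09. Also above 0 there were MYH15 at 1.06, MYOM1 at 1.06, EPHA3 at 1.04, TIMP4 at 0.99, SEMA3C at 0.92, CACNA2D3 at 0.91, COL12A1 at 0.69, STIM2 at 0.65, BMPR1A at 0.59 and RARB at 0.48. Below 0 in the authors' deposited table were DLX1 at -2.49, PTX3 at -1.89, DDIT4 at -1.38, CARMIL3 at -1.32, SHISA4 at -1.28, DRP2 at -1.24, TNS1 at -1.18, STK32B at -1.14, MMP11 at -1.13, FOXF2 at -0.97, KLF2 at -0.94, GJA4 at -0.93, DUSP1 at -0.71 and JUN at -0.61.

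In the matrix, CNGA4 (-2.33) and MSTRG.14580 (-0.81) had treatment groups apart at both days in opposite directions. By edgeR's test of the difference neither passed (adjusted p = 0.237 for each). Both were chosen for a small p of this difference, so the order of their groups is no separate evidence.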

How the results depend on the processing

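The count of loci called from the matrix moved with the tool and, within DESeq2, with the library left out. It was 0 with edgeR, also with RLE factors, without a filter and above a mean of 1 CPM, and 1 with limma voom. edgeR called 1 with the covariate and 2 without the 4 libraries lacking a set of loci, and 0 to 5 with each library left out (5 without vehicle day 5 replicate 4). DESeq2 called 232, or 267 with the covariate, 105 without the 4 libraries, and 55 to 757 with each library left out (DESeq2's covariate was planned, its other alternatives were chosen after seeing the data). The cause was not tested. Of the 232 loci, 216 were among the 267 and 48 among the 105.

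Replicate numbers are shared across groups, but the pairing check gave correlations of -0.251 to 0.36 over 24 same-number pairs, of which 6 exceeded 0.1, and 6 of 16 libraries correlated best with their own number. The highest were 0.355, 0.36 and 0.342, between the replicate 2 libraries of vehicle day 5, vehicle day 7 and nicotine day 7. Each of these libraries lacks the set of loci. Replicate 2 of nicotine day 5, which holds those loci, correlated with the same libraries at -0.239, -0.194 and -0.0497. What the lack of loci has to do with these correlations was not tested. Whether the numbers pair the embryos was not decided, and the main fit had no pairing. With a replicate block edgeR called 1 and DESeq2 398, of which 161 were among the 232.

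The authors' deposited table holds 285 calls, 599 at an adjusted p under 0.1, and 251 after readjustment over all its p-values, 203 of them shared with the 285.

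The 16 named loci were chosen for a small p of the difference between days, and the alternative runs share most or all libraries with the main fit. A kept direction is therefore no separate evidence. Their differences between days kept their direction in every alternative run. Of these values, 193 had no adjusted p, 475 did not pass and 30 passed, 14 of them for MMP11 (adjusted p 0.00375 to 0.0489). Their effects within a day did change sign near 0. At day 7, GJB1 was -0.01 and became 0.00145 with the replicate block in edgeR, 0.00835 (edgeR) and 0.00258 (DESeq2) without the 4 libraries, and -0.181 to 0.153 with each library left out. LCP2 was -0.02 and became 0.01995 with limma voom, 0.0633 (edgeR) and 0.0724 (DESeq2) without the 4 libraries, and -0.216 to 0.145 with each library left out. HHIPL2 was 0.18 and became -0.021 (edgeR) and -0.0178 (DESeq2) without the 4 libraries. At day 5, with each library left out, where both groups hold reads, OR11A1 ran from -0.339 to 0.0169, CFAP52 from -0.044 to 0.564 and IMPG2 from -0.00965 to 0.74.

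Of 41 list medians, 1 moved by more than a member's median standard error when the span trend was removed. That bound is the error of 1 gene, so a median of many genes can shift within it. The median of the long adhesion genes went from 0.27 to 0.0265 and that of axon guidance genes from 0.04 to -0.20. That of cytosolic ribosomal proteins went from -0.00185 to 0.11. With values from the matrix, 19 of 25 list medians moved by more than that error, on few members each. Low counts limit most named loci, with levels near 1 CPM.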
